A study of Mus musculus with 24 samples.

Results

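miR-221 and miR-222 are 2 microRNAs made from neighbouring hairpins on the mouse X chromosome. They were taken here as the 2 listed mature miRNAs, miR-221-3p (MIMAT0000669) and miR-222-3p (MIMAT0000670), together with the opposite arm of each hairpin, found within 90 bases on the same strand: miR-221-5p (MIMAT0017060) and miR-222-5p (MIMAT0017061). That made 4 of the 2045 mature miRNA loci that were counted. Both 3p arms and both 5p arms passed the filter on low counts, which kept 654 loci.

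The 24 small RNA libraries came from the subcutaneous fat of chow-fed female mice, in a factorial design of training by genotype. The 4 groups were sedentary wild type, trained wild type, sedentary kinase dead and trained kinase dead, with 6 libraries in each. Trained mice ran on a motorised treadmill for 1 hour on 5 days a week over 6.5 weeks at 16 m/min, and a running wheel was also freely available. The sources used here do not name the kinase, how it was made inactive, the strain, the age or which fat pad was taken, and they leave unsaid whether the sedentary mice also had a wheel.

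A miRNA hairpin is cut by Drosha and Dicer, and usually 1 of its arms is loaded into an Argonaute protein while the other is degraded. The loaded arm recognises target mRNAs mainly through its seed, the bases 2 to 8 counted from its 5′ end, so miRNAs with the same seed share many predicted targets. miR-221 and miR-222 are generally described as products of a common primary transcript. They are known for repressing the cell cycle inhibitor p27 (Cdkn1b) and the stem cell factor receptor Kit, for acting on proliferation and migration of vascular smooth muscle and endothelial cells, and for restraining the differentiation of preadipocytes.

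The mature sequences are shown because the pair differs outside the seed. They come from RefSeq (GRCm38.p6), run 5′ to 3′, and have the seed in capitals. Among the loci with a RefSeq mature sequence, all 3 miRNAs that carry the seed GCUACAU are given, followed by the 5p arm of miR-221. The 367 loci named from GENCODE had no sequence here, so their seeds were not examined.
miR-221-3p: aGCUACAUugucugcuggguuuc
miR-222-3p: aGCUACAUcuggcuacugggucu
miR-1928: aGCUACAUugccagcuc
miR-221-5p: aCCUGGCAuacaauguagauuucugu
miR-221-3p and miR-222-3p were identical over the first 8 bases, and 11 of their 23 bases matched when both were aligned at the 5′ end. The third carrier of the seed, miR-1928, is a 17-base locus on chromosome 1. It had 1 read in 1 library, so among loci with a RefSeq sequence nearly all reads with this seed came from the X-linked pair.

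Both hairpins lie on the minus strand. The Mir221 hairpin occupies chrX:19146294-19146388 (95 bases) and the Mir222 hairpin chrX:19146893-19146971 (79 bases) in GRCm38, the assembly behind mm10. They are shown with the 3p mature miRNA in capitals, so that the place of each arm can be seen.
Mir221 hairpin: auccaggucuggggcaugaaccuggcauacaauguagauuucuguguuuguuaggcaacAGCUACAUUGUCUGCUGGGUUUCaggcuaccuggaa
Mir222 hairpin: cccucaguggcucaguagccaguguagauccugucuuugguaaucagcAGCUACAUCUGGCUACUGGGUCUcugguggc
The hairpins are 504 bases apart and together span 678 bases. No other GENCODE gene overlaps that stretch on either strand, which makes it intergenic. The nearest other gene at higher coordinates is Gm14636, a processed transcript on the same strand, 10009 bases away. The counted locus of miR-221-3p is chrX:19146307-19146329 and that of miR-221-5p is chrX:19146344-19146369. The locus of miR-222-3p is chrX:19146903-19146923, or 21 bases, and that of miR-222-5p is chrX:19146940-19146960. None of the 4 loci overlaps a counted locus on the opposite strand, and each has 1 copy in the table.

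Library totals ranged from 1.60 to 23.6 M reads. By library totals alone, 3 reads corresponded to 0.127 to 1.87 CPM, the read count scaled to the library total. The levels given here are CPM with each library total also multiplied by its TMM scaling factor. The trained groups were sequenced more deeply. Their mean totals were 9.95 M reads (wild type) and 10.8 M reads (kinase dead). The sedentary groups of the same genotypes had 6.59 M and 6.71 M reads. In wild type the sedentary mean was raised by sedentary wild type 6, at 20.9 M reads. By median the wild type gap was wider, at 10.77 M reads in trained against 3.75 M reads in sedentary libraries. Their ranges overlapped, at 4.63 to 13.2 M reads in trained and 1.60 to 20.9 M reads in sedentary wild type. In 7 libraries, spread over all groups, the lymphocyte miRNA miR-150-5p lay at 3460 CPM or more, against at most 1005 CPM in the other 17. These lymphocyte-rich libraries were sedentary wild type 1, trained wild type 1 and 2, sedentary kinase dead 5 and 6, and trained kinase dead 3 and 6. All 22 counted loci of adipocyte-associated miRNAs (among them miR-378a, miR-148a and miR-193b) had reads, with group medians of their summed level between 59182 and 64226 CPM.

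The 3p arms were the abundant arms of both hairpins. Over the 24 libraries miR-221-3p averaged 651 ± 107.5 CPM (SD, n = 24) and miR-222-3p 352 ± 71.6 CPM, which placed them 106th and 147th of the 654 tested loci by mean CPM. Their 5p arms stood 264th and 421st. The reads behind a value ranged from 1519 to 16556 per library for miR-221-3p and from 11 to 139 for miR-222-5p, the scarcest arm. Counting error therefore matters far more for miR-222-5p.

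miR-221-3p had its highest level in sedentary wild type. The 6 libraries of that group ranged from 620 to 911 CPM with a median of 724, and trained wild type ranged from 479 to 640 with a median of 561. Sedentary kinase dead ranged from 562 to 758 with a median of 668, and trained kinase dead from 509 to 829 with a median of 612. In wild type all 6 trained libraries lay below the sedentary median and 5 of them below the lowest sedentary library, and the groups overlapped only through trained wild type 3. Trained kinase dead was the most scattered group, with its lowest library below and its highest above every sedentary kinase dead library.

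miR-222-3p was lower and more scattered. Its CPM ranged from 318 to 534 (median 351) in sedentary wild type and from 264 to 415 (median 307) in trained wild type. It ranged from 287 to 409 (median 381) in sedentary kinase dead and from 187 to 465 (median 338) in trained kinase dead. The wild type groups overlapped: 5 of the 6 trained libraries lay below the sedentary median and 4 below the lowest sedentary library. The lowest and the highest of the trained kinase dead libraries were replicates 1 and 2, which lay outside the range of the sedentary kinase dead group on opposite sides.

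Both 5p arms had their highest median in sedentary wild type and their lowest in trained wild type. miR-221-5p ranged from 49.7 to 73.2 CPM (median 61.0) in sedentary wild type, from 39.7 to 51.6 (median 45.8) in trained wild type, from 45.1 to 73.0 (median 56.2) in sedentary kinase dead and from 35.2 to 62.5 (median 53.4) in trained kinase dead. miR-222-5p ranged over the same groups from 5.89 to 9.60 (median 7.25), 4.5 to 6.90 (median 5.68), 4.69 to 8.76 (median 7.15) and 5.09 to 6.83 CPM (median 5.93). For either 5p arm, all 6 trained wild type libraries lay below the sedentary wild type median. The groups still overlapped, with 4 trained libraries below the lowest sedentary one for miR-221-5p and 3 for miR-222-5p.

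**Figure D1:**
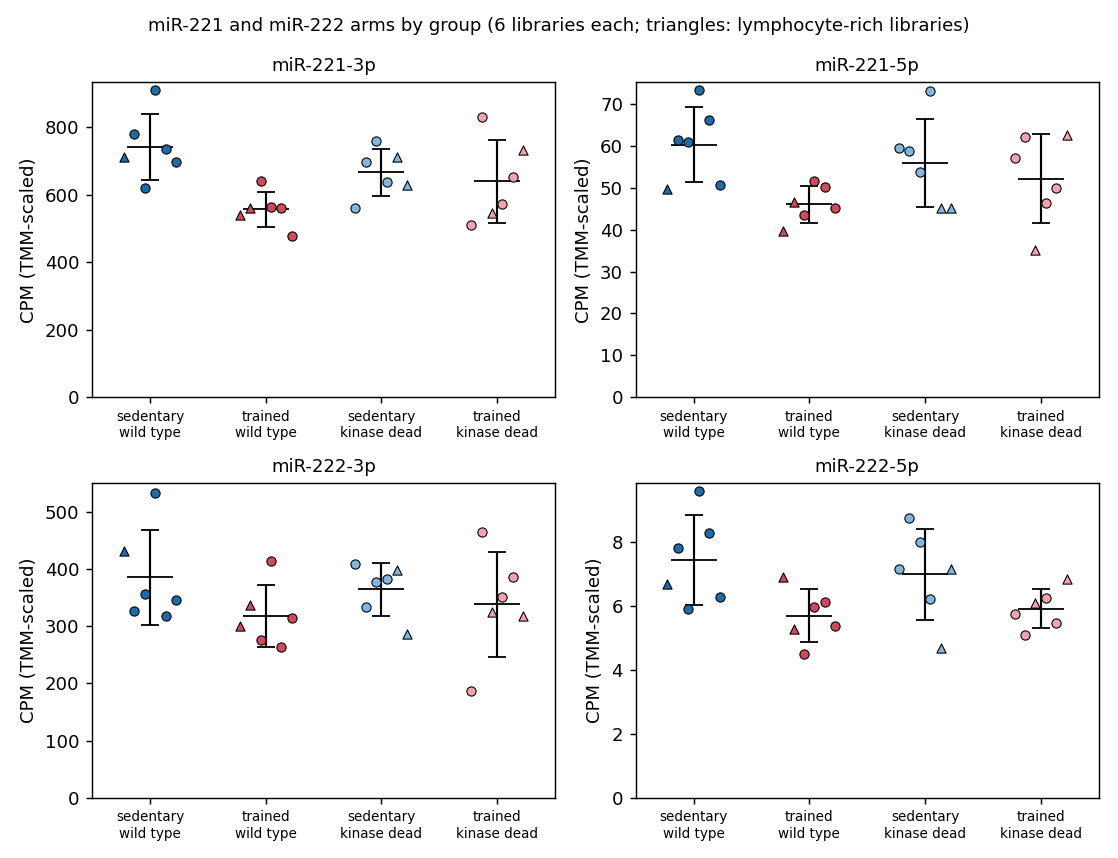
Level of each arm in CPM (vertical axes from 0) in the 24 libraries, by group on the horizontal axis. Points are libraries, with triangles for the 7 lymphocyte-rich ones, and bars show the mean ± SD (n = 6). For miR-221-3p, 5 of the 6 trained wild type libraries lie below the lowest sedentary wild type library at 620 CPM.

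By group mean, each of the 4 arms stood highest in sedentary wild type, then in sedentary kinase dead, trained kinase dead and trained wild type. For miR-221-3p the means were 742 ± 97.8, 666 ± 70.0, 640.2 ± 122 and 557 ± 51.8 CPM (SD, n = 6 each). For miR-222-3p they were 386 ± 83.3, 364.9 ± 46.2, 339 ± 91.7 and 318 ± 54.3 CPM. Neighbours in this order did not differ beyond their spread. Two-sided exact permutation tests on log2 CPM over every split of the libraries (n = 6 each) gave p = 0.152, p = 0.576 and p = 0.167 for the steps down this order for miR-221-3p, and p = 0.671, p = 0.532 and p = 0.799 for miR-222-3p.

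The comparison of trained with sedentary wild type asks what training does in mice with the intact kinase. Relative to all tested loci, miR-221-3p was 24.9% lower in trained wild type. Its log2 fold change was -0.41 (SE 0.13), with a 95% interval of -0.68 to -0.15. The adjusted p was 0.831 in edgeR's quasi-likelihood test (Benjamini-Hochberg adjustment, 654 loci), so it did not pass, although its unadjusted p of 0.00332 was the smallest of all loci. An exact permutation test of its log2 CPM alone, two-sided and unadjusted, gave p = 0.00433, where 0.00216 is the smallest value that splits of 6 against 6 can give (n = 6 each). It was 1 of 8 such tests. The permutation test reuses the libraries in which this locus had the smallest unadjusted p of 654, and its lower level there was known beforehand. It is therefore not separate evidence. The same unadjusted exact test gave p = 0.0152 with CPM scaled by library totals alone and p = 0.0238 without the 7 lymphocyte-rich libraries (n = 5 sedentary and 4 trained).

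The other arms had values on the same side of 0. The log2 fold change was -0.38 (SE 0.15) for miR-221-5p and -0.37 (SE 0.16) for miR-222-5p, or 23.4% and 22.5% lower in trained wild type. miR-222-3p had the smallest estimate, -0.28 (SE 0.18), with a 95% interval of -0.64 to 0.09. Its exact permutation p was 0.102, two-sided and unadjusted (n = 6 each).

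Of the 4 arms, 3 were lower with an unadjusted edgeR p under 0.05, beside 3.52% of all tested loci. The count was 2 of 4 by DESeq2, 1 of 4 with the log2 library total as a covariate and 1 of 4 when every locus with at least 1 read was tested. It was also 1 of 4 without sedentary wild type 4, without trained wild type 1, without trained wild type 3 and without trained wild type 6, each left out alone. The arms of a hairpin come from 1 precursor, so these are not independent readings. No locus passed the adjusted threshold (0.0%) by edgeR or by DESeq2, and 38 loci by edgeR and 41 by DESeq2 had an unadjusted p under 0.05 in either direction. No tested locus had trained wild type libraries all below the sedentary ones (0.0%).

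Sequencing depth and the lymphocyte content of the libraries were set beside this difference. With the log2 library total as a covariate the log2 fold change of miR-221-3p was -0.31 (SE 0.12), that of miR-221-5p was -0.25 (SE 0.14), that of miR-222-3p was -0.16 (SE 0.18) and that of miR-222-5p was -0.33 (SE 0.18). Without the 7 lymphocyte-rich libraries the values were -0.40 (SE 0.16) for miR-221-3p, -0.37 (SE 0.15) for miR-221-5p, -0.23 (SE 0.22) for miR-222-3p and -0.41 (SE 0.18) for miR-222-5p. With 1 library left out at a time, the log2 fold change lay between -0.46 and -0.33 for miR-221-3p and between -0.44 and -0.29 for miR-221-5p. It reached -0.16 for miR-222-3p without sedentary wild type 4 and -0.23 for miR-222-5p without trained wild type 3.

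In kinase dead mice the estimates were nearer to 0. For miR-221-3p the log2 fold change with training was -0.06 (SE 0.13), or 3.91% lower with a 95% interval from 19.8% lower to 15.2% higher. The values were -0.10 (SE 0.15) for miR-221-5p, -0.11 (SE 0.18) for miR-222-3p and -0.24 (SE 0.16) for miR-222-5p. None of the 4 arms had an unadjusted edgeR p under 0.05 in the lower direction, beside 1.53% of all tested loci, and no locus passed the adjusted threshold (17 loci by edgeR and 17 by DESeq2 had an unadjusted p under 0.05).

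Single libraries carried much of the kinase dead values. Leaving out trained kinase dead 2, the library with the highest 3p levels of its group, moved miR-221-3p to -0.20, and leaving out trained kinase dead 3 moved it to -0.00. For miR-222-3p the value went from -0.27 without trained kinase dead 2 to -0.00 without trained kinase dead 1. Trained kinase dead 2 had 2.29 M reads, and of the 24 libraries only sedentary wild type 4 had fewer (1.60 M). miR-222-5p differed from the 3p arms in 1 respect: all 6 trained kinase dead libraries lay below the sedentary kinase dead median. Its value was -0.41 (SE 0.19) without the lymphocyte-rich libraries, with an unadjusted p of 0.0443 and an adjusted p of 0.661 by edgeR's quasi-likelihood test.

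Whether the response to training differed between the genotypes was tested as an interaction, the training effect in kinase dead minus that in wild type. For miR-221-3p it was 0.36 on the log2 scale (SE 0.18), with a 95% interval of -0.01 to 0.73, an unadjusted p of 0.0581 and an adjusted p of 1.0 by edgeR's quasi-likelihood test. A difference between the genotypes in the response of miR-221-3p was therefore not shown. The estimates were 0.28 (SE 0.21) for miR-221-5p, 0.17 (SE 0.25) for miR-222-3p and 0.13 (SE 0.23) for miR-222-5p. By edgeR none of the 4 arms had an unadjusted p under 0.05, beside 1.99% of all tested loci in either direction. By DESeq2 miR-221-3p did, at 0.37 (SE 0.17) with an unadjusted p of 0.0324 and an adjusted p of 0.987, and with the red cell covariate in edgeR it was 0.45 (SE 0.19) with an unadjusted p of 0.0240. In edgeR the count was also 1 of 4 with DESeq2 size factors and without trained kinase dead 4. No locus passed the adjusted threshold, with 13 loci by edgeR and 14 by DESeq2 at an unadjusted p under 0.05. Leaving out trained kinase dead 2 moved the interaction to 0.23 for miR-221-3p and to 0.025 for miR-222-3p, and leaving out sedentary kinase dead 6 moved that of miR-221-5p to 0.15.

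Averaged over the genotypes, which weights both training effects equally, trained mice had log2 fold changes of -0.24 (SE 0.09) for miR-221-3p, -0.24 (SE 0.11) for miR-221-5p, -0.30 (SE 0.12) for miR-222-5p and -0.19 (SE 0.13) for miR-222-3p. The adjusted p was 0.608 for miR-221-3p and for miR-222-5p, 0.808 for miR-221-5p and 0.994 for miR-222-3p by edgeR's quasi-likelihood test. Of the 4 arms, 3 were lower with an unadjusted p under 0.05, beside 3.52% of all tested loci. The count was 3 of 4 by DESeq2, 1 of 4 with the log2 library total or the neutrophil score as a covariate, and 0 of 4 when every locus with at least 1 read was tested. It was 1 of 4 without trained wild type 3, without trained kinase dead 3 and without trained kinase dead 5, each left out alone. The wild type libraries enter this average, so it repeats part of the wild type difference. No locus passed the adjusted threshold, with 37 loci by edgeR and 41 by DESeq2 at an unadjusted p under 0.05.

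Genotype alone was compared within each training status. Among sedentary mice, kinase dead libraries had log2 differences from wild type of -0.16 for miR-221-3p, -0.11 for miR-221-5p, -0.08 for miR-222-3p and -0.07 for miR-222-5p, with SEs between 0.13 and 0.18. Among trained mice the same differences were 0.20, 0.17, 0.09 and 0.06. None of the 4 arms had an unadjusted edgeR p under 0.05 in sedentary mice, beside 0.765% of all tested loci in either direction, or in trained mice, beside 0.917%. No locus passed the adjusted threshold in either comparison. At an unadjusted p under 0.05 there were 5 loci by edgeR and 6 by DESeq2 in sedentary mice, and 6 and 11 in trained mice. All these comparisons share groups with those of training, so the values are not separate evidence.

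**Figure D2:**
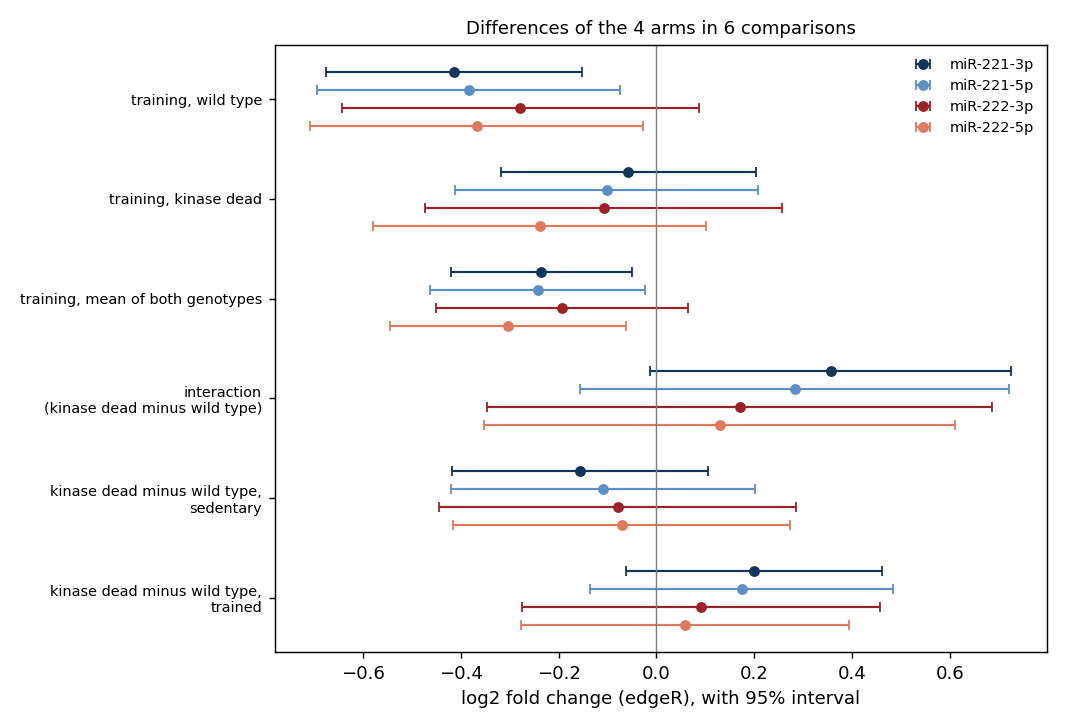
Log2 fold change (horizontal axis) of the 4 arms in the 6 comparisons (vertical axis), as points with 95% intervals from edgeR. The intervals of miR-221-3p, miR-221-5p and miR-222-5p lie below 0 for training in wild type and for the mean of both genotypes, and every other interval contains 0.

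The balance within the cluster was measured as ratios of reads inside each library, which do not depend on library size. A read stands for 1 captured small RNA, so no length correction was made, but adapter ligation favours some sequences and the ratios are of reads, not of molecules. The ratio of miR-221-3p to miR-222-3p averaged 1.90 over the 24 libraries and ranged from 1.36 to 2.73. Its group means were 1.97 ± 0.322 in sedentary wild type, 1.8 ± 0.362 in trained wild type, 1.85 ± 0.305 in sedentary kinase dead and 1.97 ± 0.447 in trained kinase dead (SD, n = 6 each). The groups overlapped widely, and the highest ratio belonged to trained kinase dead 1, the library with the lowest miR-222-3p.

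The 5p arm held a small share of each hairpin's reads. For miR-221 the share of 5p reads in both arms was 7.53 ± 0.913% in sedentary wild type, 7.68 ± 0.908% in trained wild type, 7.81 ± 1.74% in sedentary kinase dead and 7.58 ± 1.36% in trained kinase dead (SD, n = 6 each). For miR-222 the corresponding shares were 1.93 ± 0.414%, 1.79 ± 0.371%, 1.92 ± 0.532% and 1.86 ± 0.659%. The miR-222 hairpin thus yielded the more lopsided pair of arms in every group.

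Single libraries were far apart in these shares. For miR-221 they ranged from 5.97% (Wilson 95% interval 5.29 to 6.73%) in sedentary kinase dead 5 to 10.3% (8.99 to 11.7%) in sedentary kinase dead 4. For miR-222 they ranged from 1.08% (0.606 to 1.93%) to 2.99% (2.27 to 3.93%), both in trained kinase dead, and the lower value rests on 11 reads of miR-222-5p. These intervals cover counting error only, and they treat each read as independent. Reads without molecular identifiers are not independent molecules, so the intervals may be too narrow even for counting error.

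None of the 3 ratios differed between groups by more than the spread between libraries. Over 12 two-sided exact permutation tests (3 ratios in 4 comparisons of 6 against 6 libraries) the unadjusted p lay between 0.372 and 0.968, and the Benjamini-Hochberg adjusted p was 0.968 for each. No shift between the arms or between the hairpins was detectable against this spread.

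**Figure D3:**
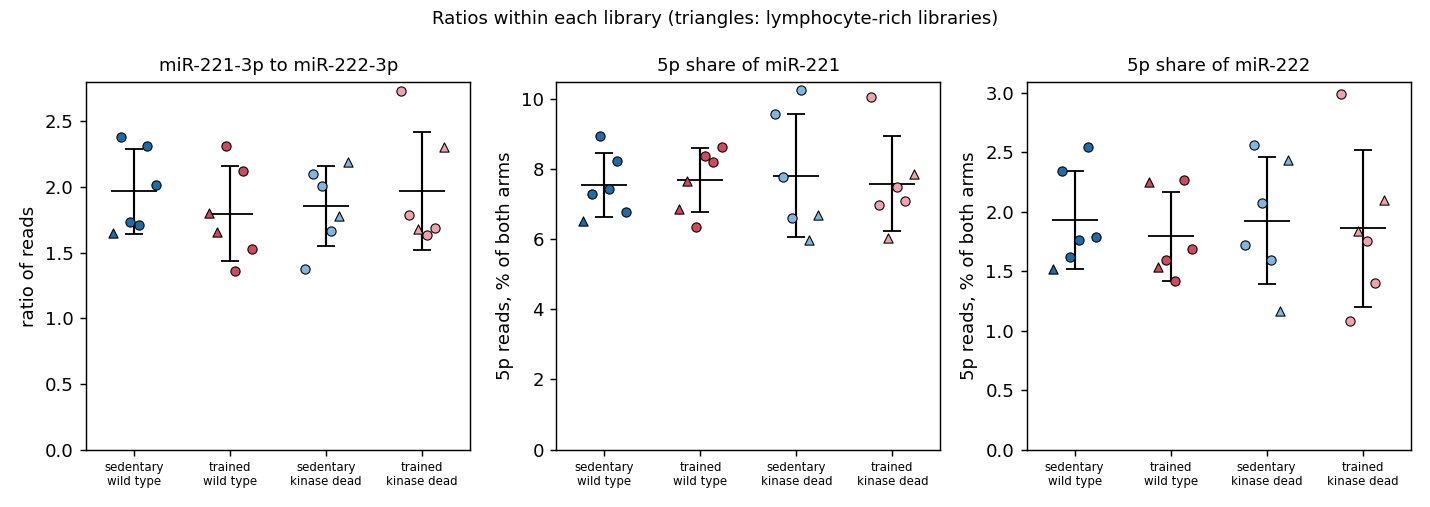
Ratio of miR-221-3p to miR-222-3p reads and the 5p share of each hairpin's reads in percent (vertical axes from 0), by group on the horizontal axis. Points are libraries, with triangles for lymphocyte-rich ones, and bars show the mean ± SD (n = 6). The group means of the 3p ratio lie between 1.8 and 1.97.

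The 5p share of miR-221 was 6.80 ± 0.732% in the 7 lymphocyte-rich libraries and 8.0 ± 1.19% in the other 17 (SD). This came from the 5p arm, at 46.3 ± 8.61 against 56.6 ± 8.97 CPM, while miR-221-3p stood at 633 ± 85.5 against 659 ± 117 CPM. These sets were drawn from the libraries' own counts and not from the study's groups, so the difference is described without a test.

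Over the 17 libraries that were not lymphocyte-rich, the log2 CPM values of miR-221-3p and miR-222-3p had a Pearson's r = 0.57 (permutation p = 0.0153, adjusted p = 0.0612) and Spearman's rho = 0.41 (permutation p = 0.0987, adjusted p = 0.197). The adjustment covers 4 tests, and none passed it. Without the 2 libraries farthest from the median of miR-221-3p (sedentary wild type 4 and trained wild type 6) r was 0.45. Over the 7 lymphocyte-rich libraries r was 0.54 (exact permutation p = 0.236, adjusted p = 0.315) and rho was 0.36 (exact permutation p = 0.444, adjusted p = 0.444), and r without the 2 farthest was 0.69. The libraries of a group and the depth of a library are shared by both values.

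**Figure D4:**
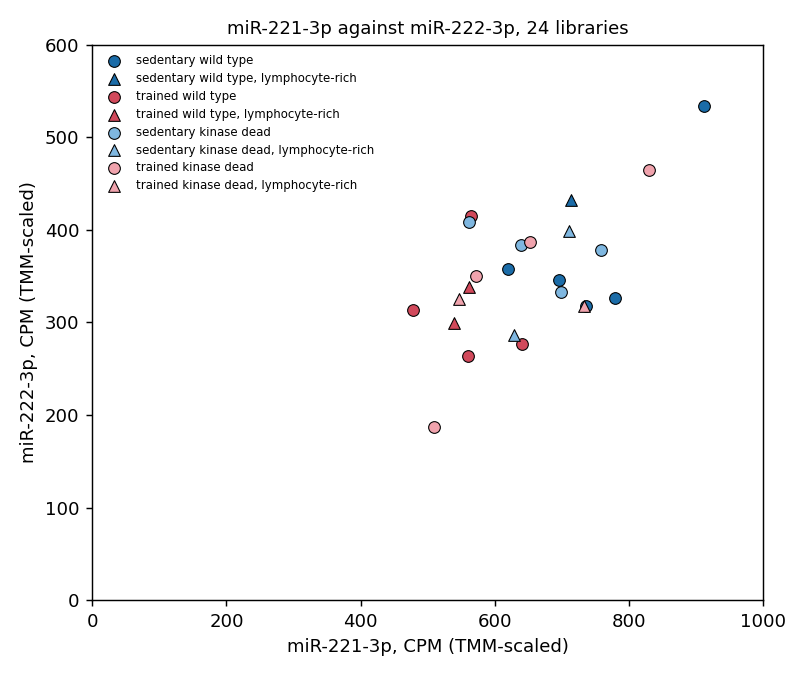
CPM of miR-221-3p (horizontal axis) against CPM of miR-222-3p (vertical axis), 1 point per library, coloured by group, with triangles for the 7 lymphocyte-rich libraries. Sedentary wild type 4 lies at the upper right with 911 and 534 CPM, and trained kinase dead 1 is lowest in miR-222-3p at 187 CPM.

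Between libraries of a group, miR-221-3p, miR-221-5p and miR-222-5p varied little for their level, while miR-222-3p was nearer to loci of similar level. The SD was taken on log2 CPM with a constant added to CPM before the log, which narrows the SD of scarce loci such as miR-222-5p. Pooled within groups, it was 0.19 for miR-221-3p, 0.24 for miR-221-5p, 0.30 for miR-222-3p and 0.21 for miR-222-5p. The medians over the 50 loci nearest in mean CPM were 0.36, 0.38, 0.34 and 0.44. miR-221-3p had 3 of its 50 neighbours below it and miR-222-5p had none, whereas miR-222-3p had 18.

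Likeness over the 24 libraries was measured as Spearman's rho between log2 CPM values, with a constant added to CPM before the log. The mean of the lymphocyte-rich or the other set was removed first. The means of the 4 groups were not removed, so differences between groups enter rho. Likeness is therefore a description that libraries, depth and group can shape. miR-221-5p had rho = 0.59 with miR-221-3p and ranked 18th among all tested loci, miR-222-3p had rho = 0.44 and ranked 63rd, and miR-222-5p had rho = 0.36 and ranked 98th. The median over the other tested loci was 0.05. miR-222-3p had rho = 0.36 with miR-221-5p but -0.0026 with miR-222-5p, the other arm of its own hairpin, which ranked 319th, beside a median of -0.01 over the other tested loci. The 5 most alike loci outside the cluster were miR-500-3p (rho = 0.76), miR-342-3p (0.72), miR-34a-5p (0.72), miR-20a-3p (0.70) and let-7g-3p (0.66). miR-500 is also X-linked, miR-342 is known from lymphocytes and miR-34a is a target of p53. For miR-222-3p the most alike were miR-1964-3p (0.80), let-7b-5p (0.76), miR-423-3p (0.65), miR-181d-5p (0.63) and let-7c-5p of the Mirlet7c-2 locus (0.60), so the 5 names nearest to each 3p arm did not coincide.

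Fat is a mixed tissue, and in bulk RNA fewer cells of a type cannot be told apart from less of a miRNA per cell. The residuals of miR-221-3p had rho = 0.61 with the summed level of 16 lymphocyte loci, 0.55 with the 2 arms of the neutrophil miRNA miR-223, -0.42 with the 2 arms of the endothelial miRNA miR-126a and -0.43 with the adipocyte-associated sum. The corresponding values of miR-222-3p were 0.46, 0.04, -0.23 and 0.12. With the smooth muscle, striated muscle, red cell and nerve sums miR-222-3p had rho = 0.41, -0.39, 0.29 and -0.29. For miR-221-3p these were 0.25, -0.07, -0.02 and -0.13. With the epithelial and liver sums rho was 0.16 and 0.12 for miR-222-3p, and -0.10 and -0.0043 for miR-221-3p. All loci of the lymphocyte, neutrophil, endothelial and adipocyte-associated lists had reads. In wild type the neutrophil sum had a median of 277 CPM (222 to 311) in sedentary and 232 CPM (199 to 302) in trained libraries, and the endothelial sum 49247 CPM (36389 to 73934) and 54405 CPM (48558 to 60286). The lymphocyte sum had medians of 5810 CPM (4693 to 26148) and 5072 CPM (4087 to 24205), and the adipocyte-associated sum 59182 CPM (50636 to 72190) and 60283 CPM (53336 to 72387).

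The striated muscle sum was more uneven, with a median of 1519 CPM (689 to 7503) in sedentary and 3576 CPM (1092 to 6098) in trained wild type. Of its 18 loci 16 had reads, and miR-206-5p and miR-208b-5p were at 0. Medians in sedentary and trained wild type were 150868 and 126080 CPM for smooth muscle (4 of 4 loci with reads), 21441 and 19711 CPM for epithelium (14 of 14) and 3357 and 2753 CPM for red cells (5 of 5). They were 175 and 179 CPM for nerve (16 of 16) and 55.5 and 67.3 CPM for liver (2 of 2). Scores for some of these marker sets were used in turn as a covariate, but not those for smooth muscle, nerve or liver. The log2 fold change of miR-221-3p in wild type was then -0.37 (SE 0.13) for neutrophils and -0.38 (SE 0.12) for endothelium. It was -0.41 (SE 0.13) for lymphocytes, -0.41 (SE 0.13) for adipocyte-associated miRNAs and -0.44 (SE 0.13) for striated muscle. It was -0.46 (SE 0.13) for red cells and -0.41 (SE 0.13) for epithelium. All but the lymphocyte covariate were chosen after seeing the data.

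Other miRNAs known from adipocyte differentiation were read beside the cluster, from a list of 12 names without miR-221 and miR-222. Of its 26 loci 21 were tested. In wild type 11 were lower and 10 higher after training, with a median log2 fold change of -0.01, the same as over all tested loci (-0.01). None passed the adjusted threshold by edgeR, and 3 had an unadjusted p under 0.05: miR-224-5p at -0.41 (SE 0.19), miR-138-5p of the Mir138-1 locus, whose sequence has another genomic copy that can share its reads, at -0.41 (SE 0.20) and miR-31-3p at -0.76 (SE 0.30), all lower. These 3 of 21 stand beside the 3.52% of all tested loci that were lower at that p. The other tested copy of miR-138-5p, of the Mir138-2 locus, was at -0.18 (SE 0.27) and was not among the 3. The 3 most abundant were miR-27b-3p at 0.15 (SE 0.11) and miR-27a-3p at 0.28 (SE 0.18), which are known for restraining adipogenesis, and miR-130a-3p at -0.54 (SE 0.35), a miRNA that targets Pparg.

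In kinase dead mice 17 of the 21 were lower, with a median of -0.12 against -0.02 over all tested loci, of which 53.2% were lower. None had an unadjusted p under 0.05. miR-27b-3p stood at -0.01, miR-27a-3p at 0.01 and miR-130a-3p at -0.26.

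The second list held 19 names of miRNAs known from blood vessels, with 36 of 43 loci tested. In wild type 20 were lower and 16 higher after training, with a median of -0.03, and in kinase dead 19 were lower and 17 higher, with a median of -0.01. The 36 loci are not separate readings. Some overlap on opposite strands, such as those of miR-126a and miR-126b, and others are copies of a sequence, such as those of miR-24-3p and miR-19b-3p. Over all tested loci 51.4% were lower in wild type and 53.2% in kinase dead. None passed the adjusted threshold by edgeR, and at an unadjusted p under 0.05 there was none in wild type and 1 of 36 in kinase dead, miR-10a-3p at 0.40, beside 5.81% and 2.6% of all tested loci in either direction. The most abundant, miR-143-3p of smooth muscle, had a log2 fold change of -0.18 in trained wild type. Next came miR-21a-5p at 0.12 and the endothelial miR-126a-3p at 0.07, which shares its counted reads with the opposite-strand locus miR-126b-5p.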

How the data were processed

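The table deposited by the authors holds unnormalized read counts, with a row for each mature miRNA locus and a column for each library. RNA came from a TRIzol extraction and was made into libraries with a NEBNext small RNA kit, per the labels' protocols. The submitters' processing notes name CASAVA 1.8.2, Trim Galore, Bowtie2, featureCounts and mm10. Settings for strand and multiple mapping at the counting step: not given in the sources used here.

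Of the 2045 loci, 1670 took RefSeq mature names by coordinates, 8 by sharing 1 end, and 367 were named from GENCODE. The filterByExpr function kept 654 loci, and the rest held 0.0166% of the reads. edgeR 4.0.16 (R 4.3.3) fitted the 4 groups together with TMM factors by its quasi-likelihood test, adjusted with Benjamini-Hochberg over the 654 loci at a threshold of 0.05, and was tested on simulated data. DESeq2 1.42.0 was an alternative. CPM values are TMM-scaled. SciPy 1.17.1 gave the r and rho between the 3p arms, the rho with marker sums and the Wilson intervals. Permutation tests went through splits or orders of the libraries with Python 3.11.15 and NumPy 2.4.6. Those of levels are given unadjusted: an adjustment over the 8 tests had been planned but would cover members chosen with their results known.

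The members, lists and tests were chosen with earlier results of these data known, and miR-221-3p's lower level in trained wild type was among those results. The text names the 4 arms, loci sharing their seed, the 5 loci most like each 3p arm, the 3 most abundant of each list, and any needed beside a result. Replicate numbers are in accession order, so samples were not paired. Whether each library is a separate animal is unstated, and p-values therefore reflect only the spread among these libraries, which may be technical.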

Additional observations from a re-analysis of the deposited data

Results flagged for a closer look

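One library stood apart in the summed level of both 3p arms. In sedentary wild type 4 the sum of miR-221-3p and miR-222-3p was 1445 CPM, and the nearest library of its group had 1146 CPM. The gap took up 0.640 of the range of the 6 libraries, above Dixon's 95% critical value for 6 samples. Levels, sums and ratios of the 4 arms gave 32 sets of 6 libraries, of which chance alone marks about 1 in 20. Without this library the log2 fold change of miR-222-3p after training in wild type was -0.16, in place of -0.28. Sedentary wild type 4 also had the fewest reads of the 24 libraries, 1.60 M. Whether its low depth bears on its level was not tested.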

How the results depend on the processing

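The lower level of miR-221-3p in trained wild type kept its direction under each of 16 alternatives (scaling, filters, DESeq2, depth and marker covariates, left-out sets), with log2 fold changes from -0.46 to -0.31 and an adjusted p from 0.248 to 0.999. No locus passed the adjusted threshold in any of the 6 comparisons under the alternatives run. Depth limits miR-222-5p most, with as few as 11 reads in a library. Of the values that changed sign, none had passed a test. In each case the cause was not tested.

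Without the lymphocyte-rich libraries, which leaves 17, the log2 interaction of miR-222-5p was -8.28e-05. The genotype difference in sedentary mice was then 5.34e-05 for miR-221-5p, 0.0226 for miR-222-3p (0.0225 as a difference of mean log2 CPM) and 0.061 for miR-222-5p. The genotype difference in trained mice was -0.030 for the log2 ratio of miR-222-5p to miR-222-3p. With reads summed per group, the log2 ratio of miR-221-3p to miR-222-3p was -0.072 for training in kinase dead and -0.0023 for genotype in trained mice. The log2 ratio of miR-222-5p to miR-222-3p was then 0.11 for genotype in sedentary and -0.092 in trained mice.

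With 1 library left out at a time, the edgeR values ranged from -0.011 to 0.17 for the interaction of miR-222-5p. For genotype in sedentary mice they ranged from -0.11 to 0.039 for miR-222-3p and from -0.12 to 0.067 for miR-222-5p, and in trained mice from -0.020 to 0.16 and from -0.053 to 0.085. The difference in mean log2 CPM of miR-222-3p ranged from -0.35 to -0.17 for training in wild type, and without trained wild type 4 its exact permutation p was 0.0260, two-sided and unadjusted (n = 6 and 5). The same difference ranged from -0.25 to 0.013 for training in kinase dead, from -0.12 to 0.034 for genotype in sedentary and from -0.046 to 0.22 in trained mice. The log2 ratio of miR-221-3p to miR-222-3p ranged from -0.023 to 0.13 for training in kinase dead. That of miR-221-5p to miR-221-3p ranged from -0.013 to 0.087 for training in wild type, from -0.13 to 0.057 in kinase dead, from -0.055 to 0.11 for genotype in sedentary and from -0.12 to 0.038 in trained mice. That of miR-222-5p to miR-222-3p ranged from -0.23 to 0.072 for training in kinase dead, from -0.12 to 0.11 for genotype in sedentary and from -0.15 to 0.15 in trained mice.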
